A study of Mus musculus with 12 samples.

Results

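The 52 genes described here encode cytosolic translation factors of the mouse: the proteins that start, extend and end protein synthesis on the ribosome, together with inhibitors and rescue factors that act on the same steps. They were taken by name, from a list of initiation, elongation and termination factors, and all 52 were found among the 22467 transcripts of the count table. All 52 also passed the expression filter, which left 12576 transcripts tested. The measurements were ribosome-protected footprints (RPFs, the mRNA fragments covered by ribosomes) and total RNA from the same single whole embryos at embryonic day 8.5. The groups were 3 wild-type (Rpl10a +/+) and 3 Rpl10a LOF/LOF embryos, giving 12 libraries from 6 embryos with no pooling. Both groups were kept on a C57BL/6 background and lysed with cycloheximide. The LOF allele was made by injecting a guide RNA into embryos and encodes RPL10A (uL1, a protein of the large ribosomal subunit) with an extra stretch of amino acids at its N-terminus; it is carried in every cell of the embryo, so no tissue was targeted.

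Initiation factors bring the small ribosomal subunit with its initiator tRNA to the capped 5′ end of an mRNA, scan to a start codon and join the large subunit. Elongation factors then deliver aminoacyl-tRNAs and move the ribosome by one codon at a time, and release factors free the finished protein at the stop codon. Many of the most abundant factors, above all the elongation factors and the poly(A)-binding protein PABPC1, are made from TOP mRNAs, whose 5′ ends begin with a run of pyrimidines (C and T in the DNA sequence) and whose translation is tied to growth signalling through mTOR. In early embryos, in which cells divide quickly, this machinery is made in large amounts.

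The pyrimidine runs and start codons of the members on which the results turn are shown first. For the 6 core TOP members, the first run of at least 8 pyrimidines in the 5′UTR of the annotated transcript is in capitals, with 4 bases of sequence on either side where the transcript has them (GENCODE annotation, GRCm38, 5′ to 3′, DNA letters; the start site used in these embryos was not measured):
Eef1a1: gacgTTCTTTTTCgcaa
Eef1b2: ggcgTTTCCCTTCgttt
Eef1d: ggcgCCCTCCCTCTCCTTTgcag
Eef1g: actgCTCTCTCCTTTCCTCCTCCCTTgtct
Eef2: gcggTCTCTTCCgccg
Pabpc1: CCCCTTCTCCCCggcg
The runs lay at chr9:78481665-78481673 on the minus strand (Eef1a1), chr1:63176894-63176902 on the plus strand (Eef1b2), chr15:75909298-75909312 on the minus strand (Eef1d), chr19:8967127-8967148 on the plus strand (Eef1g), chr10:81176645-81176652 on the plus strand (Eef2) and chr15:36608962-36608973 on the minus strand (Pabpc1). Only the Pabpc1 run began at base 1 of the annotated transcript; that of Eef2 began at base 15, and the others began between bases 44 and 87. A run of this length was present in 6 of the 6 core TOP members, in 33 of the 50 members whose annotated 5′UTR spans 20 nt or more (66%) and in 49.5% of all such transcripts, so its presence alone does not set these mRNAs apart.

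Start codon contexts are shown for members with extreme ratios or genotype differences in the results and for Eif3b as a further member with a poor context. The 9 bases before the start codon and the base after it are given; capitals mark the base 3 bases before the start codon, the start codon itself and the base after it. Scanning ribosomes read a start codon best with a purine (A or G) at the former position and G at the latter:
Eif1: gaatcgtatCgtATGT
Eif5: taataagccAaaATGT
Eif5b: cgttgacaaGcgATGG
Eif4g2: caagccgccAaaGTGG
Eif2b3: agctttataAaaATGG
Eif3b: cagcgcgggCccATGC
These start codons are at chr11:100320130-100320132 (plus strand), chr12:111539616-111539618 (plus), chr1:37998290-37998292 (plus), chr7:111081545-111081547 (minus), chr4:117022165-117022167 (plus) and chr5:140419361-140419363 (plus). Eif1 and Eif3b lacked both the purine and the G. Eif4g2, whose protein DAP5 is known to start at a GTG codon, was the only member of the 52 annotated with a start codon other than ATG. The best context was found in 25 of 50 members (50%) and in 45.6% of all transcripts. An ATG upstream of the start codon was found in the 5′UTR of 19 of 50 members (38%) and of 51.6% of all transcripts.

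Factor mRNAs took up a larger part of the footprints than of the RNA. In wild-type embryos the 52 genes held 3.61% ± 0.040 of all RPF counts and 2.42% ± 0.033 of all RNA counts (SD, n = 3 embryos), and the 6 core TOP members alone held 1.64% ± 0.044 of RPFs and 1.00% ± 0.017 of RNA. Eef1a1, which carries aminoacyl-tRNA to the ribosome, and Eef2, which moves the ribosome along the mRNA, together held 1.14% ± 0.043 of RPF counts. RPF counts per member and library ran from 50 to 67698. The libraries held 7041357 to 10863499 RPF counts and 9132521 to 26561843 RNA counts.

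To compare genes with each other, RPFs per length of the counted coding window were divided by RNA per length of the transcript in each embryo, and the log2 of this RPF/RNA ratio was set to 0 at the median of 12546 transcripts. In wild-type embryos 43 of the 52 members lay above that median and 22 lay above the upper quartile, which by construction 25% of all transcripts exceed. The median over the members was 0.58, against a middle range over all transcripts from −0.77 (lower quartile) to 0.64 (upper quartile). The SD of a member over the 3 wild-type embryos had a median of 0.066 and never exceeded 0.24, which is small against the distance between most members, although close neighbours could not be ranked. These ratios are a description and were not tested; genes are not replicates.

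**Figure D1:**
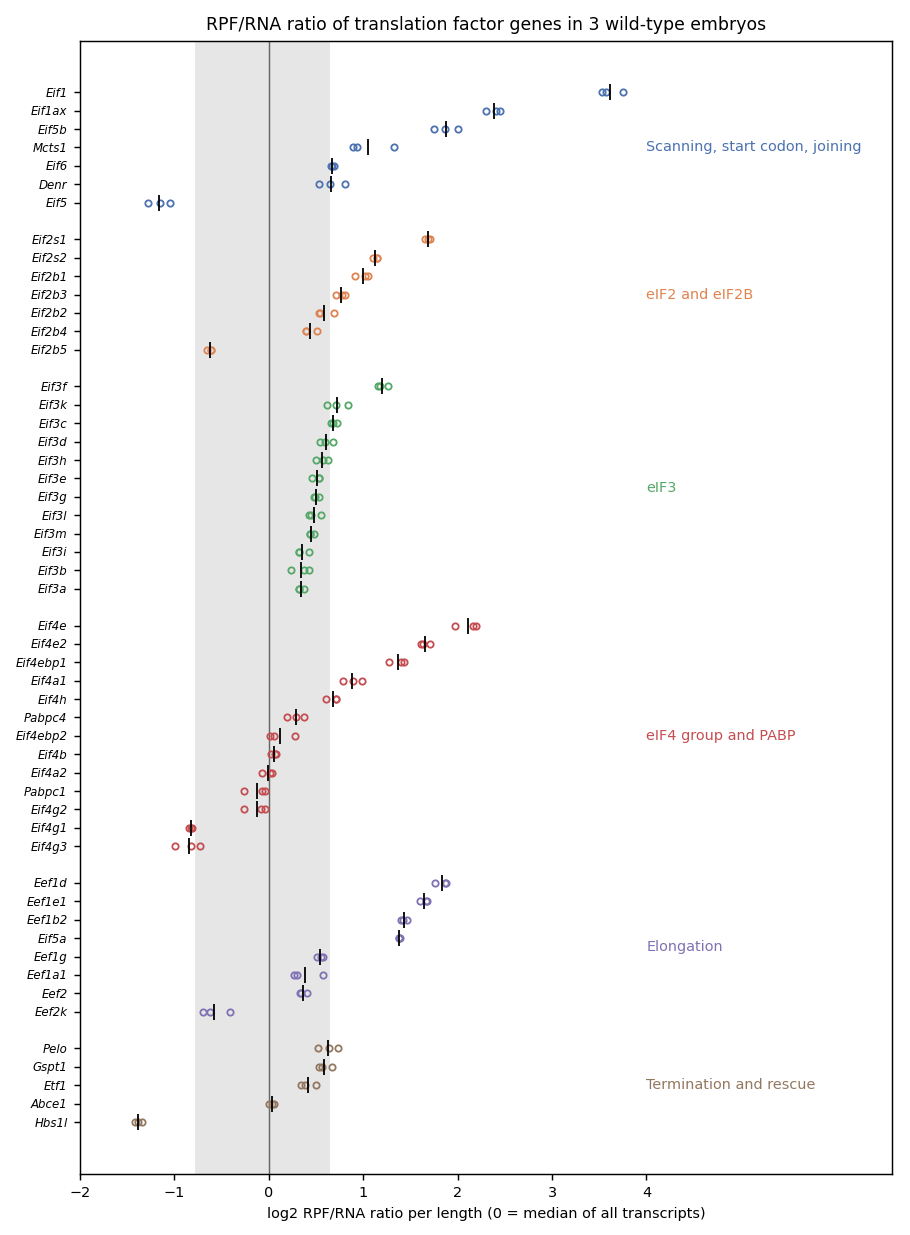
log2 RPF/RNA ratio per length (x axis, 0 at the median of all transcripts) of the 52 members in the 3 wild-type embryos (circles) with their mean (bar), grouped by role. The grey band spans the quartiles of all transcripts; Eif1 sits far to the right at 3.62, and Hbs1l and Eif5 are furthest to the left.

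The scanning and start-codon factors had the widest spread, with a median ratio of 1.05 and 6 of 7 members above the upper quartile of all transcripts. Eif1, which keeps scanning ribosomes from stopping at poor start codons, had log2 ratios of 3.57, 3.53 and 3.75 in the 3 wild-type embryos. Its mean of 3.62 ± 0.12 was 12.3-fold the median of all transcripts and ranked 13 among them all. Eif1ax, the partner of eIF1 on the small subunit, followed with 2.30, 2.41 and 2.45. Eif5b, the GTPase that joins the large subunit, had 1.87, 1.75 and 2.00. At the other end Eif5, which activates GTP hydrolysis by eIF2 and helps the scanning complex to stop at a start codon, had −1.05, −1.28 and −1.15, below the lower quartile of all transcripts in every embryo. Eif1 and Eif5, which are known to have opposed effects on start-codon choice, were at opposite ends of this class. In its annotated 5′UTR Eif5 had 5 ATG triplets before the start codon, Eif5b had 3, and Eif1 had 1. The others, Mcts1 and Denr (which act together in reinitiation and recycling) and Eif6 (which keeps free large subunits apart), lay between 0.66 and 1.05.

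The ternary complex factor eIF2 and its exchange factor eIF2B, on which the integrated stress response acts, had a median ratio of 0.77. Eif2s1, which encodes the α subunit that stress kinases phosphorylate, had the highest mean in this class at 1.68 ± 0.03, and Eif2s2, the β subunit, followed at 1.13 ± 0.03. Eif2b1 to Eif2b4 lay between 0.43 and 0.99. Eif2b5, the catalytic ε subunit of eIF2B, was the exception with −0.65, −0.61 and −0.61, below 0 in all embryos.

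The eIF3 subunits formed the tightest class. All 12 had ratios above the median of all transcripts, from 0.34 for Eif3a and Eif3b to 1.20 for Eif3f, with a class median of 0.50, and 3 of 12 were above the upper quartile of all transcripts. This large complex holds the small subunit open for mRNA and initiator tRNA.

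The cap-binding eIF4 group was split. Eif4e, which binds the cap, had 2.19, 2.17 and 1.97, and Eif4e2, a related cap-binding protein that represses translation, had a mean of 1.65. By contrast Eif4g1, the scaffold that links eIF4E to the helicase and to PABPC1, had −0.82, −0.82 and −0.85, and its relative Eif4g3 had −0.82, −0.997 and −0.72. The helicase genes differed as well: Eif4a1 had a mean of 0.88 ± 0.10 and Eif4a2 one of −0.01 ± 0.05. The inhibitors of eIF4E had means of 1.37 ± 0.08 for Eif4ebp1 and 0.11 ± 0.14 for Eif4ebp2, and the cofactors Eif4h and Eif4b had means of 0.68 and 0.06. Pabpc4, a relative of Pabpc1, had 0.29 ± 0.09. In this class 8 of 13 members were above the median of all transcripts.

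Elongation factors had a median of 0.96, with 7 of 8 members above the median of all transcripts. The highest was Eef1d, a subunit of the exchange factor eEF1B, with 1.88, 1.86 and 1.76, followed by Eef1e1 (1.65), whose product sits in the multi-tRNA synthetase complex, Eef1b2 (1.43) and Eif5a (1.38), whose product helps ribosomes through difficult peptide bonds. Eef2k, the kinase that switches eEF2 off, was the only one below 0, at −0.41, −0.62 and −0.69. Among the termination and rescue factors, Etf1 (eRF1, which reads stop codons), Gspt1 (eRF3a, its GTPase) and Pelo lay between 0.41 and 0.63 and Abce1, which splits the subunits, at 0.03. Hbs1l, the GTPase partner of Pelo in the rescue of stalled ribosomes, had the lowest ratio of all 52 with −1.34, −1.39 and −1.42.

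The ratio depends on annotated lengths. Across the 52 members it had a Spearman correlation of −0.59 with coding length and 0.24 with 3′UTR length, and across 12546 transcripts the values were −0.40 and −0.01; all points come from the same libraries, and length is itself part of the ratio. The high members Eif1ax, Eif4e and Eif5b are annotated with 3′UTRs of 4515, 4192 and 3866 nt, and a shorter 3′UTR in these embryos would raise their RNA per length and lower the ratio; which 3′ ends were used was not tested. The Eif4g2 transcript in the table is a fragment of 742 nt in 6 exons with 483 nt of coding sequence and no 3′UTR, so its values describe that fragment. An upstream ATG went with a lower ratio over all transcripts (median −0.35 with and 0.30 without), but among the members both medians were close, at 0.54 with and 0.57 without.

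Where factors work as subunits of one complex, their levels per length were closer in RPFs than in RNA in each of the 6 complexes compared, although for eIF3 the difference was small. The 12 eIF3 subunits spanned 2.28-fold in RPF level, from 258 ± 1.8 CPM per kb for Eif3i to 590 ± 12 for Eif3k (SD, n = 3), and 2.39-fold in RNA level, from Eif3f to Eif3e. The largest gap was in eEF1B. Its subunits Eef1b2 and Eef1g had nearly equal RPF levels of 1701 ± 27 and 1669 ± 19 CPM per kb, and Eef1d had 852 ± 3.7, a span of 2.00-fold. Their RNA levels of 376 ± 9.1, 684 ± 19 and 143 ± 7.0 CPM per kb, in the same order, spanned 4.79-fold. RNA is per annotated transcript (1939, 1864 and 2312 nt), against coding sequences of 678, 1314 and 846 nt. Annotated UTR lengths therefore enter the RNA span. Before division by length the RNA means were 729, 1275 and 330 CPM. For the α and β subunits of eIF2 the spans were 1.22-fold in RPFs and 1.79-fold in RNA. The 5 eIF2B subunits spanned 2.58-fold and 3.13-fold; Eif2b5, with the most RNA of them (68.0 ± 0.78 CPM per kb), had a lower RPF level (73.9 ± 2.0) than Eif2b1 (127 ± 3.4) and Eif2b2 (83.9 ± 0.82). The pair Denr and Mcts1 spanned 1.17-fold and 1.53-fold, and the release factors Etf1 and Gspt1 1.88-fold and 2.13-fold. In LOF/LOF embryos the corresponding RPF spans were 2.21-fold for eIF3, 1.85-fold for eEF1B, 1.18-fold for eIF2 and 2.59-fold for eIF2B. For eIF3 alone the order turned in LOF/LOF embryos, with 2.17-fold in RNA. No test was made of these spans, and they share the dependence on annotated lengths described above.

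**Figure D2:**
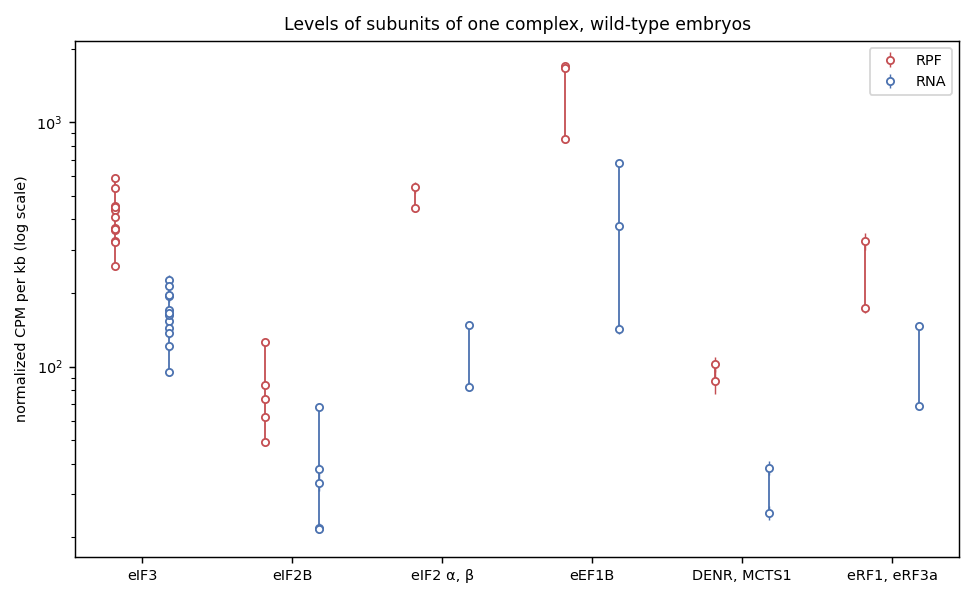
Levels per length (y axis, normalized CPM per kb, log scale) of the subunits of 6 complexes in wild-type embryos, RPF in red and RNA in blue; points are subunit means with SD over 3 embryos, and lines join the lowest and highest subunit. The eEF1B line is 4.79-fold long in RNA and 2.00-fold long in RPF.

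The TOP members did not share one ratio. Their median over the 6 genes was 0.44, 0.57 and 0.42 in the 3 wild-type embryos, and that of the other 46 factor genes was 0.57, 0.57 and 0.52. The 75 cytosolic ribosomal protein genes with a ratio had 0.41, 0.53 and 0.45. Ribosomal protein mRNAs are known as TOP mRNAs, but this list also holds paralogs such as Rps27l and Rpl22l1. Within the 6, Eef1d (1.83 ± 0.06) and Eef1b2 (1.43 ± 0.03) stood far above Eef1g (0.54 ± 0.03). Their annotated 3′UTRs span 1348, 874 and 377 nt in that order, and annotated transcript length enters the ratio. Which 3′ ends were used, and so how much of this order is due to length, was not tested. Eef1a1 had 0.27, 0.58 and 0.29, and Eef2 had 0.34, 0.41 and 0.33, so this pair could not be ranked. Pabpc1, whose product binds its own mRNA as well as poly(A) tails, had −0.05, −0.26 and −0.07 and was the only TOP member below 0 in every embryo.

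**Figure D3:**
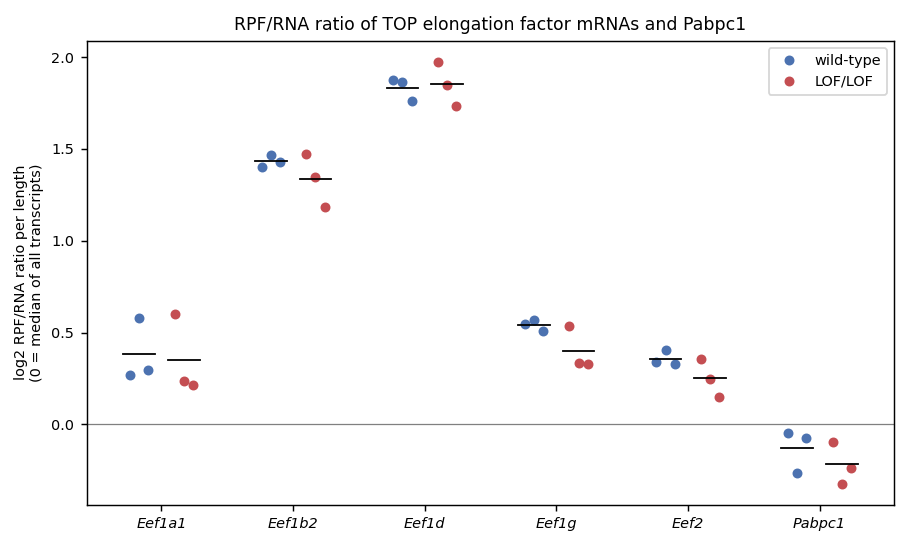
log2 RPF/RNA ratio per length (y axis, 0 at the median of all transcripts) of the 6 core TOP members in each wild-type (blue) and LOF/LOF (red) embryo, replicates 1 to 3 from left to right, with the mean as a bar. The genes differ more from each other than the genotypes do: Eef1d is near 1.8 and Pabpc1 below 0 in both.

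The LOF/LOF embryos were then compared with wild-type embryos to ask whether altered RPL10A changes the ribosome occupancy, RNA level or translation efficiency (TE, the RPF change beyond the RNA change) of the factors. Rpl10a itself had RPF levels of 1562, 1611 and 1679 CPM in wild-type and 1125, 1040 and 940 in LOF/LOF embryos, a log2 fold change of −0.64 (SE 0.07, edgeR quasi-likelihood test, FDR = 0.00689), and its RNA fell by 0.23 on the log2 scale (FDR = 0.0678). The embryos differ in other ways that go with genotype. Y-linked genes summed to 163 to 183 CPM in RPFs of wild-type embryos, to 154 in LOF/LOF replicate 2, to 9.09 in replicate 1 and to 0.384 in replicate 3, so sex is partly confounded with genotype. All 9 markers of the E8.5 embryo body were detected in every library. Visceral endoderm and yolk sac markers summed to 6319 to 8342 CPM in wild-type and 2249 to 4766 in LOF/LOF RPF libraries, and all 9 were lower in LOF/LOF embryos, 9 of 9 at FDR < 0.1 in RNA and 7 of 9 at FDR < 0.1 in RPFs. Primitive erythroid markers summed to 826 to 2784 CPM in wild-type and 3416 to 5751 in LOF/LOF RPF libraries, with 2 of 5 called higher. In RNA their sums overlapped, at 380 to 1615 against 1431 to 2395 CPM, and none was called. The trophoblast markers were at or near 0, with a sum of at most 7.86 CPM in any library. The part of these differences in the values of the factor genes was not tested, and in whole embryos fewer cells of a type and less RNA per cell cannot be told apart.

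In RPFs, 1 of the 52 members passed FDR < 0.1, a share near that of all transcripts, of which 2.19% were called (1.05% as higher and 1.15% as lower). The member was Eif2b3, the γ subunit of the exchange factor eIF2B, at chr4:117019402-117086852 (plus strand, 12 exons). It had 80.9, 79.5 and 81.7 CPM in wild-type embryos and 112.8, 97.2 and 95.6 in LOF/LOF embryos. All LOF/LOF embryos were above all wild-type embryos, replicate 1 furthest. The log2 fold change was 0.33 (SE 0.08, edgeR FDR = 0.0873). Its RNA was also higher in every LOF/LOF embryo (40.6, 37.1 and 43.4 against 33.8, 32.4 and 35.6 CPM), at a log2 fold change of 0.25 that did not pass (FDR = 0.153) but did without LOF/LOF replicate 2 (FDR = 0.0930), and its TE difference was 0.09 with a 95% interval from −0.14 to 0.32. The Eif2b3 RPF call was lost without any one of 5 of the 6 embryos (FDR 0.123 to 0.356, in fits that called 0.0318% to 1.52% of all transcripts) and with a covariate from the Y-linked genes (FDR = 0.440, in a fit that called 0.175% of all transcripts), at log2 fold changes of 0.25 to 0.38.

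Over the whole set the RPF log2 fold changes had a median of 0.04 (0.004 over all transcripts tested), with 32 of 52 above 0 against 50.9% of all transcripts. LOF/LOF replicate 1 carried that median: relative to the wild-type mean the members' median was 0.14 in replicate 1, −0.01 in replicate 2 and 0.00 in replicate 3, and without replicate 1 the median fold change was −0.0004. The embryos did not overlap between genotypes for 8 members that were higher in LOF/LOF (9.92% of all transcripts) and 2 that were lower (9.45%). At an unadjusted p under 0.05 there were 6 members against 13.7% of all transcripts.

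By role, the eIF2 and eIF2B genes had positive RPF fold changes in 7 of 7 cases, from 0.01 to 0.33, with a median of 0.09, and 1 called. This rested on LOF/LOF replicate 1: without it 6 of 7 were positive, from −0.10 (Eif2s2) to 0.25 (Eif2b3), and the middle value was 0.02 (Eif2b2). For eIF3 4 of 12 were positive and the median was −0.01. Eif3g, an RNA-binding subunit, had the largest eIF3 difference, with 295, 286 and 298 CPM in wild-type and 365, 334 and 330.5 CPM in LOF/LOF embryos, a log2 fold change of 0.23 that did not pass (FDR = 0.139). Scanning factors ranged from −0.07 to 0.15, where the upper value is Eif5 with 135.7, 119.2 and 123.0 CPM in wild-type and 137.9, 148.3 and 132.8 in LOF/LOF embryos. Among elongation factors the kinase Eef2k had the largest difference. It had 10.8, 9.83 and 9.28 CPM against 7.29, 9.08 and 8.84, lower in each LOF/LOF embryo by a small margin on 50 to 118 counts, with a log2 fold change of −0.24 (SE 0.15, FDR = 0.513). Among termination and rescue factors it was Hbs1l, with 65.4, 62.9 and 61.5 against 81.3, 64.5 and 73.7 CPM, groups that overlapped, and a log2 fold change of 0.21 (FDR = 0.347). Abce1, in the same class, had 0.17 (FDR = 0.309). With limma-voom and surrogate variables, which the study also used but followed by locfdr (not run here), 10.4% of all transcripts and 7 of the 52 members were called: Eif3g (FDR = 0.00706), Eif4e (0.0117), Eif4a1 (0.0310), Eif4g1 (0.0479), Abce1 (0.0682), Eif2b3 (0.00377) and Eif4ebp2.

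**Figure D4:**
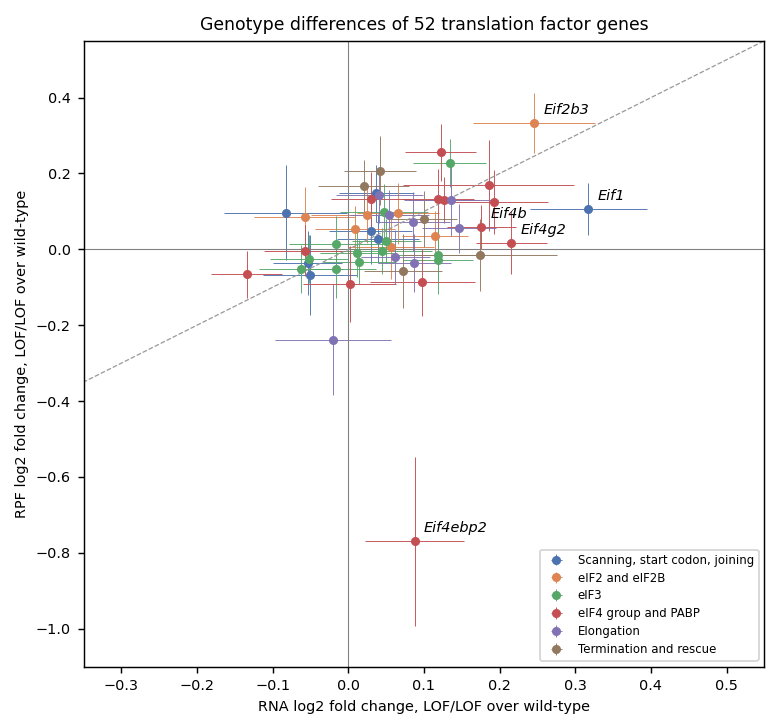
Log2 fold change of LOF/LOF over wild-type embryos in RNA (x axis) and RPF (y axis) for the 52 members, colored by role, with SE bars; the dashed line marks equal change. Members past FDR < 0.1 in either and Eif4ebp2 are named: most points are within 0.2 of 0, and Eif4ebp2 lies alone at −0.77 in RPF.

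In RNA, 3 of the 52 members rose and none fell at FDR < 0.1, where 5.02% of all transcripts were called (1.77% as higher and 3.25% as lower). Eif1 (chr11:100319885-100322096, plus strand) had 166.8, 181.0 and 142.5 CPM in wild-type and 208.7, 205.7 and 196.0 in LOF/LOF embryos. It rose by 0.32 on the log2 scale (SE 0.08, edgeR FDR = 0.0650), with the groups separate but wild-type replicate 3 well below the other two. Its RPF level of 709.6, 749.6 and 685.5 CPM against 823.3, 717.4 and 767.4 overlapped between groups, with a log2 fold change of 0.11 (FDR = 0.549).

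Eif4g2 (chr7:111078422-111083019, minus strand), which encodes DAP5, a relative of eIF4G that works without binding eIF4E, had 264.7, 279.6 and 269.1 CPM of RNA in wild-type and 308.0, 325.8 and 311.1 in LOF/LOF embryos. It rose by 0.22 (SE 0.05, edgeR FDR = 0.0426), again with separate groups, and its RPF log2 fold change was 0.02 (FDR = 0.954). Eif4b (chr15:102073773-102097173, plus strand, 15 exons), a cofactor of the eIF4A helicase and a TOP mRNA in many cell types, had 679.0, 702.0 and 697.6 against 800.8, 784.3 and 763.2 CPM. It rose by 0.18 (SE 0.05, edgeR FDR = 0.0782), with an RPF log2 fold change of 0.06 (FDR = 0.709). The TE differences of Eif1, Eif4g2 and Eif4b were −0.21, −0.20 and −0.12, with 95% intervals of −0.45 to 0.03, −0.41 to 0.02 and −0.26 to 0.03; none passed. All 3 RNA calls were lost without wild-type replicate 1 (FDR 0.182 to 0.332), without LOF/LOF replicate 2 (FDR 0.113 to 0.170) and with the Y-linked covariate (FDR 0.223 to 0.407), at log2 fold changes of 0.16 to 0.35. Eif4b also lost its call without wild-type replicate 2 or 3 (FDR 0.115 and 0.157), and Eif1 without LOF/LOF replicate 3 (FDR = 0.108). Without LOF/LOF replicate 1 only Eif4g2 passed, at FDR = 0.0706. The shares of all transcripts called in RNA were 1.10% without wild-type replicate 1, 4.72% without LOF/LOF replicate 2 and 0.827% with the Y-linked covariate. With DESeq2, which called 4.92% of all transcripts in RNA, Eif1, Eif4g2 and Eif4b passed beside Pabpc1 and Eef2, and with surrogate variables, where 4.69% were called, Eif1 and Eif4g2 passed and Eif4b did not (FDR = 0.102).

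**Figure D5:**
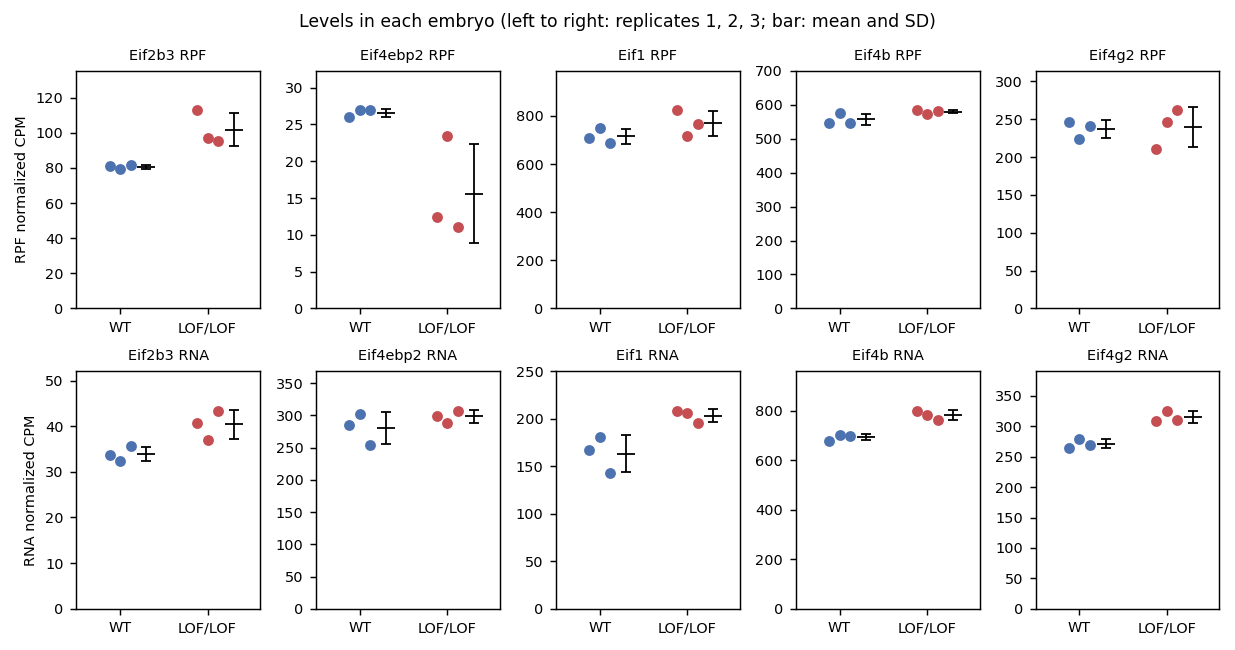
RPF (top) and RNA (bottom) levels in normalized CPM (y axes from 0) of 5 members in each embryo, wild-type in blue and LOF/LOF in red, replicates 1 to 3 from left to right, with mean and SD in black. The Eif4ebp2 RPF level is 23.4 CPM in LOF/LOF replicate 2 and 12.4 and 11.03 CPM in the other LOF/LOF embryos, while its RNA overlaps between genotypes.

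The RNA fold changes of the set leaned upward in all 3 LOF/LOF embryos. The median over the 52 was 0.05 (−0.002 over all transcripts), 41 of 52 were above 0 (49.4% of all transcripts), and relative to the wild-type mean the members' median was 0.07, 0.05 and 0.07 in LOF/LOF replicates 1 to 3 and −0.01, −0.04 and 0.05 in the wild-type embryos, so that wild-type replicate 3 reached nearly the same level. The groups did not overlap for 15 members that were higher (10.2% of all transcripts) and 1 that was lower (12.6%), the helicase Eif4a2, with 218.7, 212.6 and 218.2 against 199.9, 203.0 and 187.8 CPM (log2 fold change −0.13, FDR = 0.176). The share of RNA counts held by the 52 genes was 2.41%, 2.40% and 2.46% in wild-type and 2.57%, 2.52% and 2.59% in LOF/LOF embryos, which did not overlap; the RPF share of 3.58%, 3.66% and 3.61% against 3.99%, 3.58% and 3.69% did. At an unadjusted p under 0.05 there were 14 members, against 17% of all transcripts. In the eIF4 group 11 of 13 RNA fold changes were positive and in termination 5 of 5. The largest in termination was Pelo, with 16.3, 16.4 and 18.2 against 17.5, 18.5 and 22.2 CPM, groups that overlapped, and a log2 fold change of 0.17 (FDR = 0.434).

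None of the 6 core TOP members passed in RPF, RNA or TE with edgeR on all embryos. In RNA, Eef2 passed with DESeq2 (FDR = 0.0392, 4.92% of all transcripts called) and limma-voom (FDR = 0.0885, 5.63% called). Pabpc1 passed with DESeq2 (FDR = 0.0803) and without wild-type replicate 2 (FDR = 0.0671, 3.59% called). RNA fold changes of the core TOP members were positive in 6 of 6 (49.4% of all transcripts), with a median of 0.11. Groups were separate and higher in LOF/LOF embryos for 4 of the 6 and for 10.2% of all transcripts. Eef2 had 2947, 2941 and 3029 CPM of RNA in wild-type and 3293, 3179 and 3400 in LOF/LOF embryos, separate groups with a log2 fold change of 0.15 (SE 0.05, FDR = 0.161). Eef1a1 had 3953, 3520 and 3996 against 4119, 4085 and 4397 CPM, also separate (0.14, FDR = 0.299). Eef1g had 1254, 1254 and 1315 against 1380, 1318 and 1365 CPM, separate by a few CPM (0.09, FDR = 0.397), as was Eef1b2 with 732, 710 and 745 against 757, 755 and 771 (0.06, FDR = 0.548). Pabpc1 had the largest RNA difference of the 6 but the groups overlapped, at 1137, 1293 and 1063 against 1393, 1311 and 1287 CPM (0.19, FDR = 0.204). Eef1d, at 319, 323 and 349 against 339, 334 and 357 CPM, overlapped too (0.05).

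In RPFs the TOP members were highest in LOF/LOF replicate 1. Eef1a1 had 5908, 6544 and 6073 CPM in wild-type and 7851, 5973 and 6438 in LOF/LOF embryos, Eef2 had 5078, 5341 and 5178 against 5819, 5145 and 5243, and Pabpc1 had 1212, 1190 and 1110 against 1452, 1152 and 1226. Eef1g had 2065, 2105 and 2108 against 2285, 1871 and 1967 CPM, and Eef1b2 had 1034, 1052 and 1067 against 1136, 1024 and 953. For these 5 the groups overlapped. Eef1d did not overlap, with 666, 671 and 672 against 768, 684 and 689 CPM, and had a log2 fold change of 0.09 (FDR = 0.581). Among all transcripts 9.92% were higher in LOF/LOF RPFs without overlap.

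The TE of the TOP members had log2 differences from −0.12 (Eef1g) to 0.04 (Eef1d), 5 of 6 negative, with a median of −0.07 against 0.01 over all transcripts. The 95% intervals of the 6 all included 0 and together ran from −0.32 to 0.25. The median RPF/RNA ratio of the 6 was 0.57, 0.29 and 0.27 in LOF/LOF replicates 1 to 3 against 0.44, 0.57 and 0.42 in wild-type embryos, a mean of 0.38 ± 0.17 against 0.48 ± 0.08 (SD, n = 3); the groups overlapped, since replicate 1 was as high as the highest wild-type embryo. The 76 ribosomal protein genes tested had RNA fold changes above 0 in 66 cases (49.4% of all transcripts) and TE differences above 0 in 20 (52% of all transcripts). Their median RPF/RNA ratio was 0.58, 0.40 and 0.19 in LOF/LOF replicates 1 to 3 against 0.41, 0.53 and 0.45 in wild-type embryos, groups that overlapped. In RNA 1 of them rose (Rps27l, 0.28) and 2 fell (Rpl22l1, −0.32, and Rpl10a), where 1.77% of all transcripts were called higher and 3.25% lower. RPF and RNA values of the TOP and ribosomal protein genes come from the same libraries.

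No member passed in TE with edgeR, and neither did any of the 12576 transcripts (0% called; lowest FDR 0.974), while 559 transcripts (4.44%) had an unadjusted p under 0.05; DESeq2 called 4 transcripts (0.0318%) and none of the members. The members' TE differences had a median of −0.01, with 24 of 52 above 0 against 52% of all transcripts. The 95% interval of a member's TE difference reached a median of 0.20 to either side. On simulated counts, with changed transcripts drawn at random from all 12576, the TE test called 38% of those changed by 0.5 and 73% of those changed by 1. Differences of that size could therefore be missed in such transcripts. The rate for the members themselves was not simulated. Besides Eif4ebp2, the largest differences by role were those of Eif1 among scanning factors (−0.21), Eif2b2 in eIF2 and eIF2B (0.14), Eif3f in eIF3 (−0.15), Eef2k in elongation (−0.22) and Pelo in termination (−0.19). Eif2b2 had RPF levels of 82.8, 83.5 and 84.4 against 96.8, 87.6 and 82.1 CPM and RNA levels of 54.9, 49.4 and 56.5 against 50.5, 50.3 and 53.7 CPM, overlapping in both. Eif3f had RPF levels of 381, 363 and 379 against 425, 335 and 342 CPM, which overlapped, and RNA levels of 232, 237 and 246 against 252, 259 and 267 CPM, which did not.

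Eif4ebp2 was the one member with an unadjusted TE p under 0.05. It encodes an inhibitor that binds eIF4E and keeps it from eIF4G until mTOR phosphorylates it, and it lies at chr10:61428491-61452661 (minus strand, 3 exons, a coding sequence of 363 nt and a 3′UTR of 5306 nt). Its RPF level was 26.0, 26.9 and 26.9 CPM in wild-type embryos and 12.4, 23.4 and 11.03 in LOF/LOF embryos, on 284, 230 and 258 counts against 85, 201 and 116. Replicates 1 and 3 were at less than 50% of the wild-type level and replicate 2 was close to it. Its RNA did not follow: 285.8, 302.8 and 253.6 CPM in wild-type and 299.4, 288.5 and 307.5 in LOF/LOF embryos overlapped. The log2 fold change was −0.77 in RPFs (SE 0.22, edgeR FDR = 0.154) and 0.09 in RNA (FDR = 0.555), and the TE difference was −0.86 (SE 0.23, 95% interval −1.36 to −0.36, edgeR FDR = 1.00). The 2 LOF/LOF embryos with low Eif4ebp2 RPFs were those with little Y-linked signal. They also had lower RPF sums of visceral endoderm markers than replicate 2 (3125 and 2249 against 4766 CPM). The same held for erythroid markers (3416 and 3494 against 5751 CPM). Wild-type sums were 6319 to 8342 and 826 to 2784 CPM. The part of any of these in the Eif4ebp2 values was not tested.

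The Eif4ebp2 result turned on LOF/LOF replicate 2. Without it the RPF log2 fold change was −1.19 (FDR = 0.000181) and the TE difference −1.31 (FDR = 0.00201), in fits where 11.5% and 0.207% of all transcripts were called. With the covariate from Y-linked genes the RPF value was −0.21 (FDR = 0.806) and the TE value −0.25 (FDR = 1.00). In RPFs Eif4ebp2 passed with DESeq2 (FDR = 0.0259), which called 2.12% of all transcripts, with limma-voom (FDR = 0.0834, 2.62% called) and with limma-voom and surrogate variables (FDR = 0.000819, 10.4% called). Its relative Eif4ebp1 had an RPF log2 fold change of −0.09 (FDR = 0.754), and the target of both, Eif4e, had 235.6, 230.1 and 215.5 CPM in wild-type and 296.0, 249.3 and 268.6 in LOF/LOF embryos, separate groups with an RPF log2 fold change of 0.26 that did not pass (SE 0.08, FDR = 0.159) and an RNA log2 fold change of 0.12 (FDR = 0.219).

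Eif1ax and Mcts1 are on the X chromosome. Eif1ax had 255.5, 249.9 and 264.0 CPM of RNA in wild-type and 271.1, 239.6 and 231.1 in LOF/LOF embryos, and Mcts1 had 20.8, 18.3 and 20.0 against 19.2, 18.2 and 17.9; neither separated the 2 LOF/LOF embryos with little Y-linked signal from the third. This differed from the X-linked Eif2s3x, a gene for the γ subunit of eIF2 outside the 52 that is known to escape X inactivation, whose RNA was 493, 480 and 513 CPM in wild-type and 790, 529 and 734 in LOF/LOF embryos, high in the same replicates 1 and 3 (log2 fold change 0.46, edgeR FDR = 0.0755).

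Related lists of translation genes were read against the same shares of all transcripts called, 2.19% in RPFs and 5.02% in RNA. Of 34 further factors and regulators tested, none passed in RPFs; in RNA Eif2s3x and Larp1, which binds TOP mRNAs, rose (Larp1 by 0.25, FDR = 0.0482) and Eif2ak3, the stress kinase PERK, fell by 0.27 (FDR = 0.0901). None of 10 mitochondrial translation factors, 21 cytosolic aminoacyl-tRNA synthetases and their cofactors, and 5 other TOP mRNAs passed in RPF or RNA, and none of these lists had a call in TE. Their median RPF fold changes were between −0.02 and 0.04, compared with 0.04 for the 52.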

How the data were processed

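Single whole embryos were profiled, with RPF and RNA libraries from the same lysate. The authors trimmed and demultiplexed reads (UMI-tools, FASTX-Toolkit, cutadapt), removed rRNA, tRNA and snRNA reads with bowtie2, aligned the rest to GRCm38 canonical transcripts, collapsed PCR duplicates with UMI-tools and deposited raw counts per transcript. RPFs are A sites in the coding sequence without its first 15 and last 5 codons, and RNA reads are those on the whole transcript. RPFs near start and stop codons are therefore not in the values.

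Transcript identifiers were matched to the GENCODE annotation of GRCm38, 51 of the 52 members with the same version and 1 (Eif3a) with another. Transcripts above 0.75 CPM in at least 3 RPF libraries were kept, with CPM the counts scaled to library size by TMM within each library type. Genotypes were compared with edgeR 4.0.16 (quasi-likelihood test) and Benjamini-Hochberg adjustment over all 12576 transcripts at FDR < 0.1, with TE as the genotype by library interaction over 12 libraries. The study used limma-voom with sva and locfdr, the last of which was not run here; since its design and number of surrogate variables were not given in the sources used here, these were alternatives (limma 3.58.1, sva 3.50.0, 2 surrogate variables each for RPF and RNA), as were DESeq2 1.42.0, other scaling and filters, the replicate block, pairing by embryo, a Y-linked covariate and leaving out each embryo. On simulated counts for 12576 transcripts, the RPF test called 79% of those changed by 1 and 47% of those changed by 0.5 on the log2 scale, with 13.1% of calls unchanged transcripts. The TE test called 73% and 38%, with 15.3% of calls unchanged transcripts.

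RPF and RNA libraries pair by embryo, as the labels state, and their deviations correlated in all 6 embryos (r from 0.17 to 0.38). The litters of the embryos were not given in the sources used here. Members, lists and tests were chosen with earlier results of these data known. Values in every embryo are given for Rpl10a, the core TOP members, members past FDR < 0.1 or with an unadjusted TE p under 0.05, the 5 highest and 5 lowest wild-type ratios, and the largest fold change per role; other genes come from fixed lists. RPF calls among the ribosomal protein genes, other than Rpl10a, are not reported here.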

Additional observations from a re-analysis of the deposited data

How the results depend on the processing

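The number of members called in RPF (1 as reported) was 2 with DESeq2, limma-voom, no low-count filter and the replicate block, each time Eif2b3 and Eif4ebp2. These fits called 2.12%, 2.62%, 2.58% and 2.49% of all transcripts. The number was 7 with surrogate variables (Eif3g, Eif4e, Eif4a1, Eif4g1, Abce1, Eif2b3 and Eif4ebp2, where 10.4% of all transcripts were called). With the Y-linked covariate it was 0 (0.175% called). Without LOF/LOF replicate 2 it was 5 (Eif3g, Eif4ebp2, Eif4e, Eif2b3 and Hbs1l, with 11.5% of all transcripts called). Leaving out each other embryo in turn gave 0 (0.0318% to 1.52% called). The number in RNA (3) was 5 with DESeq2, which added Pabpc1 and Eef2, 4 with limma-voom, 2 with surrogate variables and with the replicate block, 0 with the Y-linked covariate, and 0 to 3 without one embryo: 0 without wild-type replicate 1 1 without LOF/LOF replicate 1 (Eif4g2), 1 without LOF/LOF replicate 2 (Eif2b3, none of the 3 reported) and 3 without wild-type replicate 2, with Pabpc1 in place of Eif4b. The number in TE (0) was 0 to 1 without one embryo, the 1 being Eif4ebp2 without LOF/LOF replicate 2, and 0 under the other alternatives run for TE, embryo pairing included; TE was not run with surrogate variables. Under the replicate block the Eif4ebp2 RPF difference was −0.83 (FDR = 0.0417), and Eif4b lost its RNA call (FDR = 0.148). Same-numbered embryos of different genotype are not known to share more than a number. Their deviations had r from −0.10 to 0.09, and whether they shared a litter or day was not tested. The cause of these shifts was not tested. Scaling by library totals in place of the median transcript moved the mean of the median wild-type ratio from 0.48 to 1.26 for the TOP members and from 0.55 to 1.34 for the other factors, and a stricter filter gave 0.42 for the TOP members and 0.49 for the others. No call changed direction. The calls rest on 3 embryos a group with Y-linked signal and yolk sac and erythroid marker levels unequal between them. The edgeR p-values set a difference against a spread estimated from these embryos and moderated over all transcripts. Eef2k and Eif4ebp2 had the lowest RPF counts of the members, down to 50 and 85 in a library.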
